A study of Homo sapiens with 4 samples.

Results

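The FOXO transcription factors and the genes that restrain insulin and mTOR signaling were examined in the core and the invasion zone of melanoma spheroids. The group holds 10 of the 56304 genes in the count table and was chosen by symbol, with earlier results of these data known. Shares of the group that differ between the zones therefore describe these libraries and are not independent evidence. It consists of the factors FOXO1, FOXO3 and FOXO4, the insulin receptor substrates IRS1 and IRS2, the mTOR brake DDIT4, the thioredoxin-interacting protein TXNIP, the zinc-finger factor KLF6 and the sestrins SESN1 and SESN3. The cells were MV3, an established human metastatic melanoma line carrying the nuclear marker H2B-GFP, which all libraries share. Spheroids of 50000 cells invaded collagen I until day 2, when the compact core and the surrounding invasion zone were punched out separately. Bulk RNAseq gave 2 core and 2 invasion zone libraries, numbered 1 and 2 in each zone. The core was cut vertically, so that invading cells above and below it can remain in the core sample, and the series rests on this 1 cell line.

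Insulin and related growth factors signal through IRS proteins to PI3K and the kinase AKT. AKT phosphorylates FOXO factors, which then leave the nucleus, and it activates mTORC1, the kinase complex that drives protein synthesis. When this signaling is weak, nuclear FOXO factors induce genes of cell cycle arrest, cell death, stress defense and insulin sensitivity, IRS2 and SESN3 among them. DDIT4, also known as REDD1, and the sestrins restrain mTORC1 under stress such as low oxygen, DNA damage or starvation. TXNIP binds thioredoxin and lowers glucose uptake. RNA counts do not measure the phosphorylation or location of FOXO proteins, and in bulk RNA fewer cells of a type and less RNA per cell cannot be told apart.

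The libraries held 11789243 to 37591782 counts, with replicate 2 the shallower in each zone. Of 11 melanocyte and melanoma markers, 6 reached the count filter. MITF stayed between 1.71 and 3.37 normalized CPM. CPM are the counts of a gene divided by the scaled library total and multiplied by 1e6. MLANA stayed under 1 CPM, and TYR and SOX10 had no count in any library. The dedifferentiated melanoma marker AXL reached 629 to 1224 CPM. The summed level of the 11 markers was 760 and 796 CPM in the core and 1387 and 1257 CPM in the invasion zone. AXL made up most of this sum, which therefore does not describe the list as a whole. Of the 6 tested markers, 1 had both invasion zone libraries above both core libraries. The median log2 fold change of the tested markers was 0.20. The remaining markers of this list are not given here. Of 8 markers of blood, endothelial and epithelial cells, only PECAM1 reached the count filter, and it made up nearly all of the summed level of the list, which was 18.6 and 7.89 CPM in the core and 5.68 and 1.01 CPM in the invasion zone. The endothelial gene CDH5 and the leukocyte gene PTPRC remained under 0.2 CPM and CD3E had no count. The described cultures were grown from the MV3 line alone, and the source of the PECAM1 RNA was not tested.

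Which of these genes differ between the zones was asked with edgeR's quasi-likelihood test, fitted on all 15529 genes that passed a count filter, with Benjamini-Hochberg adjustment. Calls required a change of at least 2-fold together with an adjusted p below 0.05. Of the 10 genes, 9 passed the filter. SESN3 did not, with 1 and 0 counts in the core and 3 and 0 counts in the invasion zone. In the shallowest library a count of 0 allows up to 0.252 CPM, so its expression was not detectable at this depth.

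DDIT4 and TXNIP had the largest differences of the group, and both were lower in the invasion zone. FOXO1, FOXO4 and IRS2 also had lower values there in both libraries, KLF6 had higher values, and FOXO3, IRS1 and SESN1 differed less. Without a term for the replicate number, edgeR called 0 of the 15529 genes (0%), members included, with 0.128 as the lowest adjusted p. By an unadjusted p below 0.05 and a 2-fold change, 454 genes were higher and 909 lower, and DESeq2 called 348 and 573. With the replicate number as a block, which compares the zones within each number, edgeR called 5 of the 10 genes lower, namely FOXO1, FOXO4, IRS2, DDIT4 and TXNIP, where 7.06% of all genes tested were called lower. It called 0 of the 10 higher, against 3.41% of all genes. Before adjustment and without the block, 3 of the 10 passed with a 2-fold decrease (FOXO1, DDIT4 and TXNIP, against 5.85% of all genes), and the same 3 were called lower by DESeq2 without a block (4.33% of its genes). For 6 of the 10 genes both core libraries exceeded both invasion zone libraries, and for 1 the reverse held. Over all genes tested these shares were 30.3% and 28.1%. Because the members were chosen with earlier results known, their distance from the shares of all genes is not independent evidence.

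**Figure D1:**
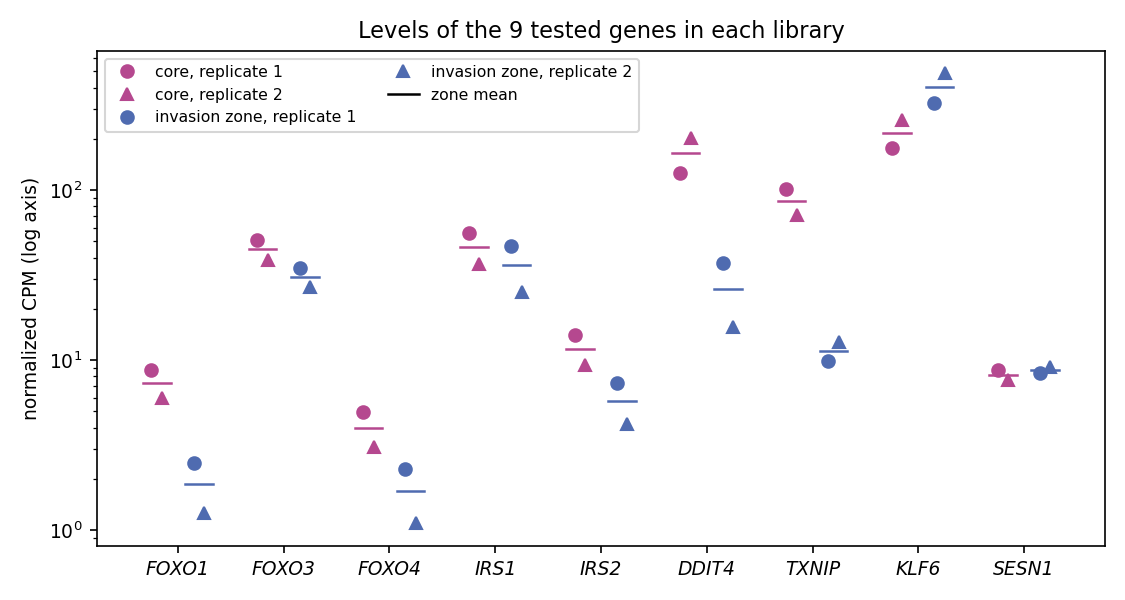
Normalized CPM (log axis) of the 9 genes that passed the count filter, with each library as a point (circles, replicate 1; triangles, replicate 2) and the mean of each zone as a bar. The DDIT4 and TXNIP points of the invasion zone lie far below those of the core, KLF6 lies the other way, and the IRS1 and SESN1 points of the zones overlap.

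DDIT4 (ENSG00000168209, chromosome 10 of GRCh38, 72273919 to 72276036, plus strand) encodes an inhibitor of mTORC1 that acts through the TSC complex and is induced by hypoxia and other stress. Its level was 126 and 202 CPM in core replicates 1 and 2 and 37.0 and 15.6 CPM in invasion zone replicates 1 and 2. Both invasion zone libraries were below both core libraries, and the library with the most DDIT4 in the core and the one with the least in the invasion zone carried the same number. The zone means were 164 ± 53.6 CPM (SD, n = 2) and 26.3 ± 15.2 CPM (SD, n = 2). The log2 fold change, invasion zone relative to core, was -2.62 (standard error 0.46, edgeR adjusted p = 0.128), and with the replicate block it was -2.61 (standard error 0.35, edgeR adjusted p = 0.000589). The decrease was 3.42-fold within replicate 1 and 12.99-fold within replicate 2. The log2 ratios of -1.77 (95% counting interval -1.86 to -1.68) and -3.70 (-3.92 to -3.48) did not overlap, so the size of the decrease differed between the numbers by more than counting error. The study named DDIT4 from these same libraries, so its values are not independent evidence.

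TXNIP (ENSG00000265972, chromosome 1, 145992435 to 145996579, minus strand) encodes an alpha-arrestin that binds thioredoxin and restrains glucose uptake. It had 101.5 and 71.4 CPM in core replicates 1 and 2 and 9.82 and 12.7 CPM in invasion zone replicates 1 and 2. The zones did not overlap, and the spread within each zone was small beside the distance between them. The core averaged 86.4 ± 21.3 CPM (SD, n = 2) and the invasion zone 11.3 ± 2.04 CPM (SD, n = 2), a 7.75-fold decrease. The log2 fold change was -2.95 (standard error 0.25, edgeR adjusted p = 0.128), and -2.98 with the replicate block (standard error 0.19, edgeR adjusted p = 5.08e-05). TXNIP fell 10.3-fold within replicate 1 and 5.62-fold within replicate 2, the opposite order to that of DDIT4.

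KLF6 (ENSG00000067082, chromosome 10, 3775996 to 3785281, minus strand) encodes a Krüppel-like transcription factor and was the one gene of the group with more RNA in the invasion zone in both replicates and in every library. It had 176 and 260 CPM in core replicates 1 and 2 and 324 and 487 CPM in the invasion zone replicates. Replicate 2 was the higher one in both zones, unlike for FOXO1, FOXO3, FOXO4, IRS1 and IRS2. The log2 fold change was 0.90 (standard error 0.28, edgeR adjusted p = 0.157), and with the replicate block 0.90 (standard error 0.07, edgeR adjusted p = 8.40e-05), a 1.86-fold difference that stayed under the 2-fold minimum. The increase was 1.85-fold within replicate 1 and 1.87-fold within replicate 2.

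**Figure D2:**
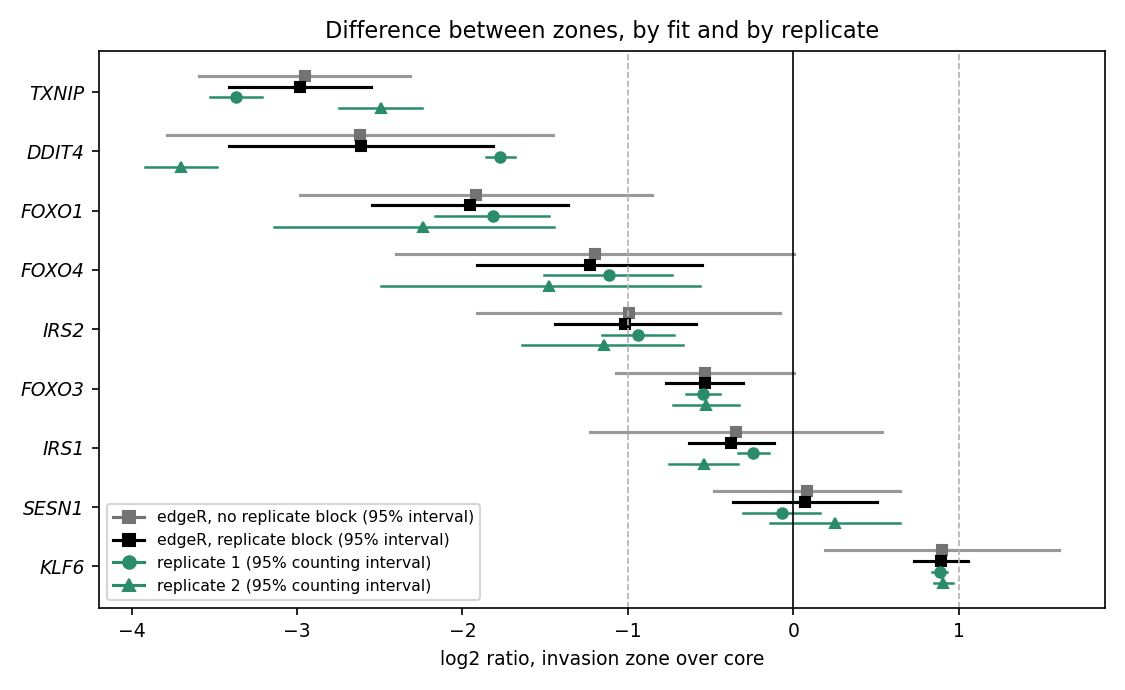
Log2 ratio of the invasion zone over the core for the 9 genes tested, from edgeR without (grey) and with (black) the replicate block and within each replicate (green), with 95% intervals and the 2-fold limits dashed. The intervals within replicates 1 and 2 lie apart for DDIT4, TXNIP and IRS1 and overlap for the other 6 genes, and the edgeR intervals are shorter with the block than without it.

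The proximal promoters of DDIT4, TXNIP and KLF6 are shown because these 3 genes had the highest levels per length of the group in the core and differed in direction between the zones. They are the 250 bases before the RefSeq start on GRCh38.p14, 5′ to 3′ on the strand of the gene. Capitals mark matches on either strand to the FOXO sites GTAAACA and ATAAACA, the HIF core ACGTG and the E-box CACGTG, which itself contains ACGTG on both strands.
DDIT4 (chr10:72273674-72273923, plus strand): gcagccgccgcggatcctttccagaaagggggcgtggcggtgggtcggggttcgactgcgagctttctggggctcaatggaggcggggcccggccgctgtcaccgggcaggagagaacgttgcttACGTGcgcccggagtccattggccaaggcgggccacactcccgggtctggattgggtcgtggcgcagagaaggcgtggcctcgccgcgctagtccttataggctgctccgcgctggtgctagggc
TXNIP (chr1:145996580-145996829, minus strand): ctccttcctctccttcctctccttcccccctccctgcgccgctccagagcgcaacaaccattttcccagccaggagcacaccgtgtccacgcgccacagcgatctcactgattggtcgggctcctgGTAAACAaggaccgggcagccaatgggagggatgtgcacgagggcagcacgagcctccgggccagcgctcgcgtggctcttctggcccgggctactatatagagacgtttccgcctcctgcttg
KLF6 (chr10:3785210-3785459, minus strand): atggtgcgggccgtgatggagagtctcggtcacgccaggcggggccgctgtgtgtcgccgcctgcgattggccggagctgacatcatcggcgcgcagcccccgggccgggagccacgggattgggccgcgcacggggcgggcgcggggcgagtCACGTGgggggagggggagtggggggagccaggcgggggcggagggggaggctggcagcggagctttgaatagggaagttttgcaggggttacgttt

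DDIT4 had 1 HIF core 125 bases before its start. TXNIP had 1 FOXO site of the first form 124 bases before its start, between CCAAT boxes at 140 and 105 bases, and the window shown is 1 of 2 listed for this gene. KLF6 had 1 E-box 97 bases before its start, which also counts as 2 HIF core matches (97 and 96 bases before the start). Of the 35116 promoter windows in the same RefSeq table, the HIF core occurred in 18.5%, the first FOXO form in 2.98%, the other in 3.77% and the E-box in 6.34%. All 10 genes had a window, and none of these letter runs was found in those of FOXO1, FOXO3, FOXO4, IRS1, IRS2, SESN1 and SESN3. The matches describe these windows and are not measured binding sites.

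The FOXO factors differed from each other in level and in the size of the zone difference. FOXO1 (ENSG00000150907, chromosome 13, 40555667 to 40666641, minus strand) had 8.75 and 5.97 CPM in core replicates 1 and 2 and 2.48 and 1.26 CPM in the invasion zone replicates, without overlap. Its log2 fold change was -1.92 (standard error 0.42, edgeR adjusted p = 0.13), and -1.95 with the replicate block (standard error 0.26, edgeR adjusted p = 0.000568). The lowest value rested on 15 counts. FOXO1 shares 1352 of its 5957 exonic bases with a gene model on the same strand in GENCODE release 44 that has no row in the count table.

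FOXO4 (ENSG00000184481, chromosome X, 71095851 to 71103532, plus strand), the least abundant of the 3 FOXO members in CPM, had 4.92 and 3.05 CPM in the core and 2.27 and 1.09 CPM in the invasion zone. All invasion zone values were below the core values, though FOXO4 in core replicate 2 exceeded invasion zone replicate 1 by less than the core libraries differed. The log2 fold change was -1.20 (standard error 0.48, edgeR adjusted p = 0.207), and with the replicate block it was -1.23 (edgeR adjusted p = 0.0111). The FOXO4 call was lost with the block in DESeq2, at an adjusted p of 0.0656.

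FOXO3 (ENSG00000118689, chromosome 6, 108559835 to 108684774, plus strand) was the most abundant FOXO gene, with 50.8 and 38.8 CPM in the core and 34.9 and 26.9 CPM in the invasion zone. The zones did not overlap, yet they were separated by less than the replicates of the core were. Its log2 fold change was -0.53 (standard error 0.21, edgeR adjusted p = 0.209). With the replicate block it was -0.54 (edgeR adjusted p = 0.00344), below the 2-fold minimum, and the decrease was 1.46-fold in replicate 1 and 1.44-fold in replicate 2. FOXO3B, a near copy of FOXO3 on another chromosome, had 1.33 to 2.10 CPM, and reads that match both copies are not kept by unique mapping, so that FOXO3 is less certain.

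Per kilobase of the canonical transcript, FOXO3 made up 70.9% and 74.0% of the summed CPM of the 3 FOXO genes in the core, and 82.0% and 87.7% in the 2 libraries of the invasion zone. The share of FOXO1 was 15.4% and 14.4% in the core and 7.37% and 5.19% in the invasion zone. The share of FOXO4 was 13.7% and 11.6% in the core and 10.7% and 7.13% in the invasion zone. Among these 3 genes, FOXO3 held a larger share in both invasion zone libraries than in either core library. FOXO6, described below, is not part of this sum. With 2 against 2 libraries an exact permutation test cannot go below 0.333, so no test of these shares was made.

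**Figure D3:**
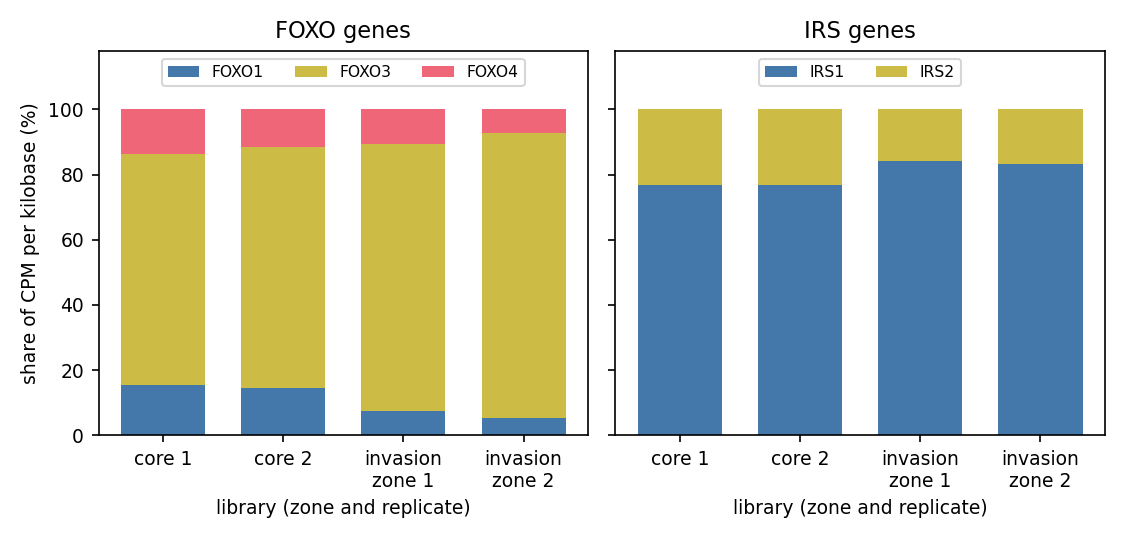
Share of each gene in the summed CPM per kilobase of FOXO1, FOXO3 and FOXO4 (left) and of IRS1 and IRS2 (right). Bars have no error bars because each bar is a single library. The share of FOXO3 rises from 70.9% and 74.0% in the core to 82.0% and 87.7% in the invasion zone, and that of IRS1 from 76.8% and 76.8% to 84.3% and 83.4%.

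The insulin receptor substrates dock PI3K to activated insulin and IGF1 receptors. IRS2 (ENSG00000185950, chromosome 13, 109752695 to 109786583, minus strand) had 14 and 9.29 CPM in core replicates 1 and 2 and 7.31 and 4.21 CPM in the invasion zone replicates, without overlap. The log2 fold change was -0.99 (standard error 0.36, edgeR adjusted p = 0.185), and with the replicate block -1.02 (standard error 0.19, edgeR adjusted p = 0.00288). IRS2 thus lay at the 2-fold limit, and with the block in limma voom it was not called, at a log2 fold change of -0.98 (adjusted p = 0.0013). IRS1 (ENSG00000169047, chromosome 2, 226731312 to 226799820, minus strand) had 55.6 and 36.7 CPM in the core and 47.0 and 25.2 CPM in the invasion zone. Its zones overlapped, with a log2 fold change of -0.35 (95% interval -1.23 to 0.54, edgeR adjusted p = 0.584), and -0.38 with the block (edgeR adjusted p = 0.0277). IRS1 made up 76.8% and 76.8% of the IRS pool per kilobase in the core and 84.3% and 83.4% in the invasion zone.

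SESN1 (ENSG00000080546, chromosome 6, 108984309 to 109094846, minus strand) encodes a sestrin, a p53- and FOXO-responsive inhibitor of mTORC1. It had 8.75 and 7.63 CPM in the core and 8.33 and 9.09 CPM in the invasion zone, and the zones overlapped. The log2 fold change was 0.08 with a 95% interval of -0.48 to 0.64 (edgeR adjusted p = 0.856), so that a 2-fold difference lies outside the interval. The replicate block gave 0.07 (edgeR adjusted p = 0.806). SESN1 shares 363 of its 7276 exonic bases with a gene on the opposite strand, and the strand setting of the counting is not given in the sources used here.

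With the replicate block and no fold minimum, 7 of the 10 genes passed the adjusted threshold with lower values (FOXO1, FOXO3, FOXO4, IRS1, IRS2, DDIT4 and TXNIP) and 1 with higher values (KLF6), where 19.4% of all genes tested passed lower and 19.4% passed higher. Without the block, the log2 fold changes of the members varied with the library left out. Without invasion zone replicate 1 they were -2.55 for FOXO1, -1.48 for IRS2, -3.40 for DDIT4, -2.77 for TXNIP and 1.16 for KLF6. In the same order, they were -1.58, -0.68, -2.15, -3.14 and 0.58 without invasion zone replicate 2. Without core replicate 1 they were -1.61, -0.66, -2.92, -2.66 and 0.66. Without core replicate 2 they were -2.16, -1.25, -2.24, -3.17 and 1.22.

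Levels were compared between genes as CPM per kilobase of the canonical transcript. In the core the order was DDIT4 (94.2 ± 30.7, SD, n = 2), KLF6 (47.4 ± 12.9), TXNIP (29.8 ± 7.33), FOXO3 (6.14 ± 1.16) and IRS1 (4.72 ± 1.36), followed by SESN1, IRS2, FOXO1 and FOXO4 between 1.45 and 1.09. FOXO3 and IRS1 overlapped between libraries, as did the 4 genes after them. In the invasion zone KLF6 came first (88.3 ± 25.1) and DDIT4 second (15.1 ± 8.71). FOXO3 (4.23 ± 0.77), TXNIP (3.88 ± 0.70) and IRS1 (3.70 ± 1.57) overlapped there, above SESN1 (1.54 ± 0.10), IRS2 (0.71 ± 0.27), FOXO4 (0.46 ± 0.23) and FOXO1 (0.32 ± 0.15).

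The genes whose centred log2 CPM over the 4 libraries came closest to that of a member were taken from all other genes tested. For IRS2 they included KIAA1551 and SYNGR1, at Euclidean distances of 0.0455 and 0.0574. For DDIT4 they were TLR4 (0.166), CTD-2619J13.3 (0.269) and DARS-AS1 (0.278), and for TXNIP RP11-326C3.2 (0.219), GZMM (0.285) and MAST1 (0.412). The neighbours of DDIT4 and TXNIP had at most 4.64 CPM in any library, far below DDIT4 and TXNIP themselves.

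The rest of the pathway was described with gene lists, none of which holds a member. The lists were chosen with earlier results of these data known, so their shares describe these libraries and are not independent evidence. Of 30 FOXO target genes in the table, 24 were tested, and with the replicate block 11 were called lower (45.8%, against 7.06% of all genes) and 2 higher. Their median log2 fold change without the block was -0.94, against -0.01 for all genes tested, and edgeR without the block called 0 of them. SOD2, the mitochondrial superoxide dismutase, had 1054 and 647 CPM in core replicates 1 and 2 and 236 and 120 CPM in the invasion zone (log2 fold change -2.25). CCNG2, an atypical cyclin linked to cell cycle arrest, changed by -2.14 on this log2 scale. BNIP3, a mitophagy receptor, changed by -1.72 and the death gene BCL2L11 by -1.70. The 2 genes called higher were GADD45A, a stress sensor (log2 fold change 1.18), and KLF2 (1.04). The study names SOD2, CCNG2 and BCL2L11 from these libraries, and without these, 8 of 21 tested genes were called lower and the median was -0.65. Called lower were 8 of 24 by DESeq2 without the block. In edgeR without the block, the calls among the FOXO targets varied with the library left out, as they did over all genes.

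DDIT4 and BNIP3 are also known targets of hypoxia-inducible factor (HIF), and HIF target genes moved in the same direction. All 22 HIF targets tested had a negative log2 fold change, with a median of -1.26. With the block 15 were called lower (68.2%, against 7.06% of all genes) and 0 higher. CA9, a carbonic anhydrase, had the largest change (log2 fold change -4.21), from 174 and 159 CPM in the core to 13.5 and 3.62 CPM in the invasion zone. NDRG1 changed by -2.93, BHLHE40 by -2.50 and PFKFB4 by -2.39. The summed level of the HIF list was 29330 and 26260 CPM in the core and 16570 and 13720 CPM in the invasion zone, and its part in the results for DDIT4 and the FOXO targets was not tested. BNIP3 was the only gene on both the FOXO and the HIF list. Without BNIP3 and the genes that the study names, 7 of 20 FOXO targets were called lower with the block (median -0.64). The lists share so little that leaving BNIP3 out does not separate FOXO from HIF targets. The calls among the HIF targets in edgeR without the block also varied with the library left out.

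Among 13 tested genes listed as brakes on PI3K and AKT, the block called 4 lower (30.8%, against 7.06% of all genes) and 0 higher. Their median log2 fold change was -0.53. PIK3IP1, which inhibits the PI3K catalytic subunit, changed by -1.92 on the log2 scale, from 11.8 and 13.9 CPM in the core to 4.88 and 1.51 CPM in the invasion zone. The pseudokinase genes TRIB2 (-1.83) and TRIB1 (-1.33) and the inositol phosphatase gene INPP5J (-1.29) made up the rest. TRIB1 is also on the list of FOXO targets and was counted in both lists. TRIB3, of the same family, changed by -0.35 and was not called. Whether TRIB1 and TRIB2 restrain AKT in these cells was not measured, and their action on AKT may be another. The 30.8% is therefore a share of the list, not of proven brakes on AKT. The other 9 tested genes of this list were not called. edgeR without the block called 0 of the 13, and PIK3IP1, TRIB2, TRIB1 and INPP5J had adjusted p from 0.135 to 0.163 there, while DESeq2 without the block called 2 of the 13 lower.

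The core components of the pathway were read against the same shares of all genes called with the block, 7.06% lower and 3.41% higher. Of 11 PI3K and AKT genes tested, 0 were called with the block and the median log2 fold change was -0.02. The regulatory subunit PIK3R1 changed by -0.82 (edgeR adjusted p = 0.128, and 0.000411 with the block) and PIK3R3 by -0.79 (edgeR adjusted p = 0.279, and 0.00825 with the block), both under the 2-fold minimum. Of 23 mTOR complex and output genes, 1 was called lower, the Rag GTPase gene RRAGB (log2 fold change -1.04), and the median was -0.003. Of 21 brakes on mTORC1 other than the members, 0 were called in either direction, and the genes with the smallest p were PRKAG2, an AMPK subunit (log2 fold change 0.62, edgeR adjusted p = 0.159), and NPRL2 of the GATOR1 complex (log2 fold change -0.42, edgeR adjusted p = 0.191). The median of these other mTORC1 brakes was 0.01, beside -2.62 for DDIT4, and this distance was not tested. Of 13 receptors and adaptors, 1 was called lower, SH2B2 (-1.38), and the median was -0.15.

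Among 23 tested genes listed as regulators of FOXO proteins, 1 gene was called lower and 1 higher with the block (median 0.16). Both shares were 4.35%, near the 7.06% lower and 3.41% higher of all genes. The gene called lower was FOXO6, which is the remaining FOXO gene and not a regulator. FOXO6 had 3.605 and 1.46 CPM in the core and 0.587 and 0 CPM in the invasion zone. Its log2 fold change was -2.78 (edgeR adjusted p = 0.182), and -2.94 with the block (edgeR adjusted p = 0.0028). SGK1, a kinase that phosphorylates FOXO factors as AKT does, had 31.0 and 56.4 CPM in the core and 90.6 and 127 CPM in the invasion zone (log2 fold change 1.32, edgeR adjusted p = 0.135, and 8.43e-05 with the block). Of the 10 tested alpha-arrestin, thioredoxin and MondoA-MLX genes around TXNIP, 1 was called lower (10%, near the 7.06% of all genes). This was ARRDC3, an alpha-arrestin related to TXNIP, with 178 and 171 CPM in the core and 67.1 and 39.4 CPM in the invasion zone (log2 fold change -1.70), and the median of the list was -0.02.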

How the data were processed

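RNA of MV3 core and invasion zone samples was measured by bulk RNAseq in 4 libraries. The deposited values are raw counts, which the authors obtained with HTSeq-count from uniquely mapped reads after Bowtie had removed ribosomal RNA, a quality filter, and STAR alignment to hg38. The sources used here do not give versions, annotation release or strand setting. A pair of repeated rows without counts (2 rows) was left out. In R 4.3.3 with edgeR 4.0.16, genes were kept by filterByExpr (10 counts for a library of median size, in 2 or more libraries, and 15 in total), scaled by TMM and tested across all genes by glmQLFTest. Standard errors are those implied by the F statistic. DESeq2 1.42.0 and limma 3.58.1 were alternatives, as were other scalings, filters, thresholds and leaving out each library. CPM use the scaled totals of the genes kept. Counting intervals are exact binomial and, like the floor of 3 counts, cover counting error only.

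The protocol takes a core and its corresponding invasion zone from the same dissected spheroid, and same-numbered libraries were read as such pairs, although the labels do not state that a number marks a shared spheroid. The deviations of such pairs from the zone means had a correlation of 0.584 across genes (2 pairs). Nothing says that the numbers are separate cultures, so p-values measure only the spread between these libraries. Libraries of the same zone differed by more than sampling noise (chi-square per degree of freedom 20.7 and 19.2). Positions, lengths and overlaps came from GENCODE release 44, which holds 98.1% of the identifiers, promoters from RefSeq on GRCh38.p14 with all 10 genes matched, and list symbols were matched through current and older names. The procedure was tested on simulated data, with the spread taken from the fit with the block and any replicate shift shared by both zones. That test cannot show whether same-numbered libraries are pairs here. The members and lists were chosen with earlier results of these data known. The text names the 10 members, up to 4 called genes per list by size of change (2 with the smallest p where no gene was called) and the 3 nearest genes to DDIT4, TXNIP and IRS2, of which 1 is not reported here.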

Additional observations from a re-analysis of the deposited data

How the results depend on the processing

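The numbers of all genes called higher and lower, 0 and 0, and of members, 0 and 0, were also 0 with RLE or upper-quartile scaling, a filter of 10 counts per library, limma voom and no fold minimum. They became 427 and 846 genes (0 and 3 members) without a count filter, 348 and 573 (0 and 3) in DESeq2 and 454 and 909 (0 and 3) at an unadjusted p. The cause was not tested. With the replicate block, that is, with pairing by number, they were 530 and 1097 (0 and 5), with the block in DESeq2 418 and 774 (0 and 4) and with the block in limma voom 575 and 1088 (0 and 4). The last 2 fits were chosen after seeing the data. With each library left out, taking the spread of the single remaining library from the other zone, 0 to 555 genes were higher and 4 to 1119 lower, with 0 to 1 members higher and 1 to 4 lower. Omitting core replicate 1 gave 0 and 4 genes, omitting core replicate 2 gave 168 and 74, with 555 and 1119 when invasion zone replicate 1 was omitted and 34 and 134 without invasion zone replicate 2. Among the members only the direction of IRS1 changed, with log2 fold changes from -0.87 (without invasion zone replicate 1) to 0.022 (without invasion zone replicate 2). Over the 10 alternatives without a block, the adjusted p of TXNIP ranged from 4.93e-36 to 0.123, that of DDIT4 from 1.90e-33 to 0.123 and that of FOXO1 from 4.01e-05 to 0.429. Over the 3 fits with a block, they ranged up to 5.08e-05, 0.00645 and 0.000568. FOXO1 and FOXO4 had 15 and 13 counts in the shallowest library, and SESN3 was below detection.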

Other observations

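Other stress and growth lists were mixed. Over all genes tested, the replicate block called 7.06% lower and 3.41% higher in edgeR. Of 19 p53 targets tested, it called 3 lower (15.8%) and 1 higher (5.26%), with a median log2 fold change of -0.32. TP53INP1 (-1.77), FAS (-1.43) and BBC3 (-1.15) were lower and the nuclease gene AEN (1.34) was higher, while SESN1, itself a p53 target, had 0.08. BBC3 was also counted among the FOXO targets called lower. Of 17 immediate-early genes, 1 was called lower (IER3, -1.34) and 1 higher (FOSL1, 1.03), each 5.88% of the list and near the shares of all genes. The median was -0.08, beside 0.90 for KLF6, which is not on the list.

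Of 13 other KLF genes, KLF9 was called lower (30.5 and 10.3 CPM in core, 5.04 and 1.35 CPM in invasion zone libraries). KLF2 was called higher (11.6 and 17.0 CPM in core, 28.1 and 30.3 CPM in invasion zone libraries). The median log2 fold change was 0.04. Each call was 7.69% of the list, beside 7.06% lower and 3.41% higher of all genes. Of 8 glucocorticoid-responsive genes, to which DDIT4 and TXNIP are often added, 3 were called lower (37.5%) and 1 higher (12.5%). The lower ones were KLF9 (-2.58), CEBPD (-2.01) and TSC22D3 (-1.26), and SGK1 (1.32) was higher. The lists share genes, so their shares are not separate evidence. KLF9 was counted here and among the KLF genes, KLF2 also among the FOXO targets and SGK1 also among the FOXO regulators. Of 6 tested melanocyte and melanoma markers, 0 were called, and the 1 tested marker of other cell types, PECAM1, was called lower with the block (log2 fold change -1.96). With all 4 libraries and the count filter, edgeR without the block made 0 of these calls, and without the count filter it called 3 p53 targets and 3 glucocorticoid-responsive genes lower and 1 of each higher.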
